A study of Mus musculus with 16 samples.

Results

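The cytosolic ribosomal protein genes code for the proteins of the large and small subunits of the ribosome, the machine that translates messenger RNA in the cytoplasm. They were taken here by symbol from the table of RPKM values (reads per kilobase of transcript, scaled to a megaread of depth): every entry named Rpl or Rps with a number and the suffixes a, x, l, l1 or al, plus Rplp0, Rplp1, Rplp2 and Rpsa. The rule found 79 genes among 17715 entries, 49 of the large and 30 of the small subunit. Of these, 76 reached 1 RPKM in at least 4 of the 16 libraries and were tested among 14303 such entries. Rpl15, Rpl27 and Rpl29 did not. Other genes for proteins of the cytosolic ribosome, such as Rps3a1, Gnb2l1 and the fusion gene Fau, fall outside the symbol rule.

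The RNA came from lung endothelial cells, the lining of the lung's blood vessels, which were sorted by flow cytometry from female mice of the C57BL/6N strain. Lewis lung carcinoma (LLC) cells, a mouse lung tumour line that spreads to the lung, were implanted under the skin. The groups were wild-type mice without a tumour (d0), mice carrying the primary tumour (d15), mice whose primary tumour had been removed (d22) and mice with metastases (d36), with 4 libraries each. The animals were wild type in every group, and no genetic change or drug is named in the labels. One d36 library, replicate 1, is titled day 29, and its time point field was followed. The sources used here do not give the age of the mice, the antibodies of the sort or the number of animals per library. The groups differ in time, tumour and surgery at once, and these cannot be told apart.

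Each ribosome holds 1 copy of nearly every one of these proteins, and the amounts of the proteins are tied to each other because unassembled ones are degraded. Their messenger RNAs are among the most abundant of a cell. Most begin with a C followed by a stretch of C and T bases, the terminal oligopyrimidine (TOP) tract, through which the kinase mTOR controls their translation, and the transcription factor Myc raises the transcription of many of them. In endothelial cells, as elsewhere, ribosome production rises with growth and division.

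For 60 of the 79 genes, a transcription start was found in the RefSeq promoter table (build GRCm38.p6). A run of at least 8 C or T bases overlapped the 10 bases on either side of the start in 27 of these 60 genes (45%), against 13.5% of the 27025 genes in the table. The windows shown here run from 10 bases before the start to 20 after it, 5′ to 3′ on the gene's strand, with the longest C/T run in capitals. Rpl7a holds the longest run (21 bases, the first of them upstream of the window) and Rpl14 one of 14. Rpl22l1, Rpl12 and Rps28 are among the genes that rose most at d36, Rpl38 and Rpl18 fell at d22, and Rpl26 fell at d22 without a long run.
Rpl7a (chr2:26910797-26910826, + strand): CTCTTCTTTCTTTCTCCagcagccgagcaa
Rpl14 (chr9:120571507-120571536, + strand): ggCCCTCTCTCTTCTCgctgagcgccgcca
Rpl22l1 (chr3:28805498-28805527, + strand): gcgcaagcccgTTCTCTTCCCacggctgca
Rpl12 (chr2:32961702-32961731, + strand): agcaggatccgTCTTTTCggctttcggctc
Rpl38 (chr11:114668570-114668599, + strand): aagcctcgTTCTTTCCCCgttctcttcggt
Rpl18 (chr7:45718061-45718090, + strand): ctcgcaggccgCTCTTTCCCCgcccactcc
Rps28 (chr17:33824543-33824572, - strand): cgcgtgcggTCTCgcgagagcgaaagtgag
Rpl26 (chr11:68901556-68901585, + strand): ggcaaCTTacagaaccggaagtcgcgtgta

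Within 300 bases around the start (250 before, 50 after; both strands), CTTCCGG, the core of an ETS-type site, stood in 24 of the 60 genes (40%) against 9.08% of all genes in the table. The Rpl26 window shows its reverse complement at the right of the start. GGGCGG, a GC box, stood in 37 (61.7%) against 35.6%, AAGATGG, a YY1-type motif, in 10 (16.7%) against 6.46%, and TATAAA in 7 (11.7%) against 14.1%. The first letters of CTTCCGG can lie within a C/T run and can overlap the reverse complement of AAGATGG, and a match is a description of the letters only. Genes with a run of at least 8 and genes with a shorter one can be set side by side at d36 against d0. There, 17 of 26 tested genes with a long run and 22 of 32 without it were higher, beside 16.6% of all tested entries. The median log2 fold changes were 0.52 and 0.56. The difference between these classes was not tested.

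Levels of the 79 genes spanned orders of magnitude, although their proteins are needed in near equal numbers. Among the highest levels, mean RPKM over 16 libraries was 574.5 for Rpl32, 567.3 for Rpl41, 443.2 for Rpl8 and 310.7 for Rpl7, all of the large subunit. At the other end stood Rpl15 (0.054), Rpl27 (0.118), Rpl29 (0.209), Rps12 (0.989) and Rpl21 (1.06). There were 23 genes under 10 RPKM, 35 from 10 to 100 and 21 above 100. Rpl41, the shortest ribosomal protein, and Rpl32 were the highest in every group mean.

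Many ribosomal protein genes have near-identical processed pseudogenes, and the sources used here do not say how reads that fit several places were assigned. As a measure of this, a single protein-coding GENCODE M21 transcript of each gene was taken, the one nearest the gene's median transcript length. The share of its 50-base stretches that also occur in transcripts of other genes was counted. The 29 genes with at most 50% of such stretches shared had a median level of 75.2 RPKM, and the 50 genes above 50% had one of 19.6. Across the 79 genes, Spearman's rho between level and shared share was -0.35 with 50-base and -0.49 with 100-base stretches, a description over genes that share libraries and that are not independent replicates. Rpl8, with 7.86% shared, stood at 443.2 RPKM. Rps27 (98.6%), Rpl35 (95.1%) and Rpl5 (93.8%) were nearly all shared, so their absolute levels are uncertain, and differences in level between genes are not read further. Rpl39l, Rpl3l and Rpl10l, paralogues that are mainly expressed in other tissues, had no entry under these symbols among the RPKM values and so were not analysed.

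**Figure D1:**
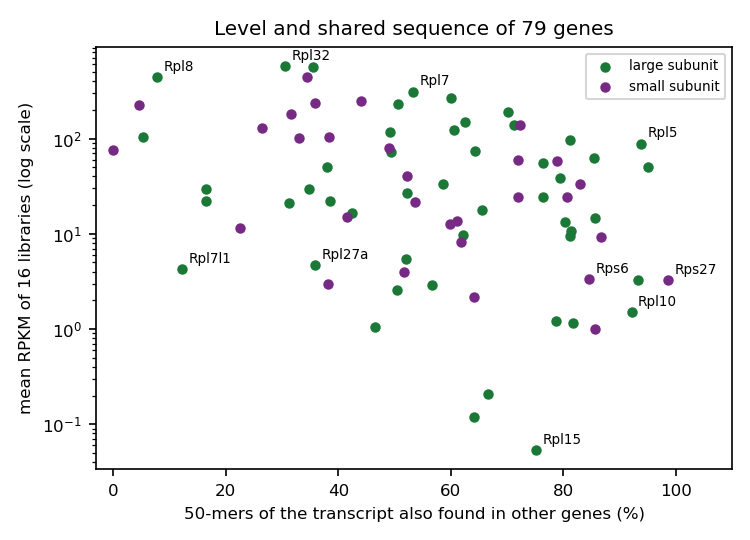
Mean RPKM over 16 libraries (log scale) of each of the 79 genes against the percentage of 50-base stretches of its chosen transcript that are found in other genes. Green points are large-subunit genes and purple points small-subunit genes. The 3 genes under 1 RPKM that were not tested, Rpl15, Rpl27 and Rpl29, all lie above 50% shared.

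Approximate depth, read from the step of low RPKM values, was 93.4 to 152.1 M (mega) reads per library, so that 1 RPKM of a transcript of 700 bases is about 65 reads at the lowest depth. The endothelial label was borne out by 10 of 10 pan-endothelial genes (Pecam1, Cdh5, Kdr and others), which summed to 3913 to 6966 RPKM in every library. Of 8 leukocyte genes, 6 were tested, and the list summed to 30.6 to 39.3 RPKM at d0 to d22 and to 44.3 to 122.4 at d36. The 6 transcripts of the carcinoma or of embryonic tissue, of which Krt8 and Krt18 also mark epithelium, summed to 4.16 to 11.9 RPKM at d0 to d22 and to 50.9 to 843.4 at d36. Within d36, replicate 9 had the lowest sum of the carcinoma list (50.9), with 538.6 to 843.4 in the other 3 libraries.

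In the group means, ribosomal protein transcripts took the largest part of the RNA at d36 and the smallest at d22. Summed over the 79 genes, the level was 5953 ± 306 RPKM at d0 (SD, n = 4) and 6391 ± 822 at d15. It was 4932 ± 644 RPKM after resection and 8446 ± 1555 with metastases. At d0 the 4 libraries held 6093, 6243, 5532 and 5942 RPKM, and at d22 they held 5164, 5533, 5006 and 4024. The d36 libraries held 8987 (replicate 1), 10017 (replicate 7), 8454 (replicate 8) and 6326 (replicate 9). All 4 d36 libraries lay above all 4 of d0, replicate 9 by a small margin, and all d22 libraries lay below 3 of the 4 d0 libraries. As a share of the summed RPKM of a library the genes made up 2.14% ± 0.07 (d0), 2.20% ± 0.18 (d15), 1.82% ± 0.17 (d22) and 2.72% ± 0.44 (d36). By this measure d36 replicate 9 (2.08%) lay inside the d0 range of 2.06 to 2.23%. In sorted bulk cells, more transcripts per cell and more cells of a kind rich in them cannot be told apart.

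**Figure D2:**
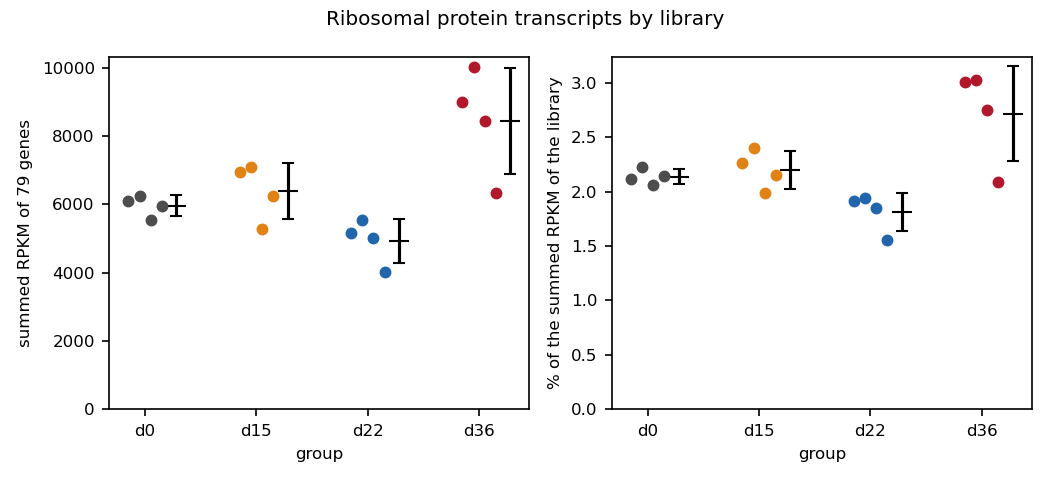
Summed RPKM of the 79 ribosomal protein genes (left) and their percentage of the summed RPKM of each library (right), by group. Coloured points are libraries, black dashes with bars are mean ± SD of 4 libraries, and 3 of the 4 d36 libraries stand above all others while replicate 9 lies near d0 on the right.

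The genes moved largely together. Of the 76 tested genes, 75 had their highest group mean at d36 and 55 their lowest at d22. A moderated F test over the groups (limma) passed for 62 of 76 genes, beside 28.7% of all tested entries. In a principal component analysis of the 76 genes, the first component held 69.1% of the variance and 75 genes loaded on it with one sign, with Rpl38 alone on the other side. The second component held 17.4%. On the first component d36 replicate 9 scored 0.85, nearer to d0 replicate 2 (0.21) than to the other d36 libraries (3.96 to 5.84), and d22 replicate 6 scored lowest (-3.80).

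**Figure D3:**
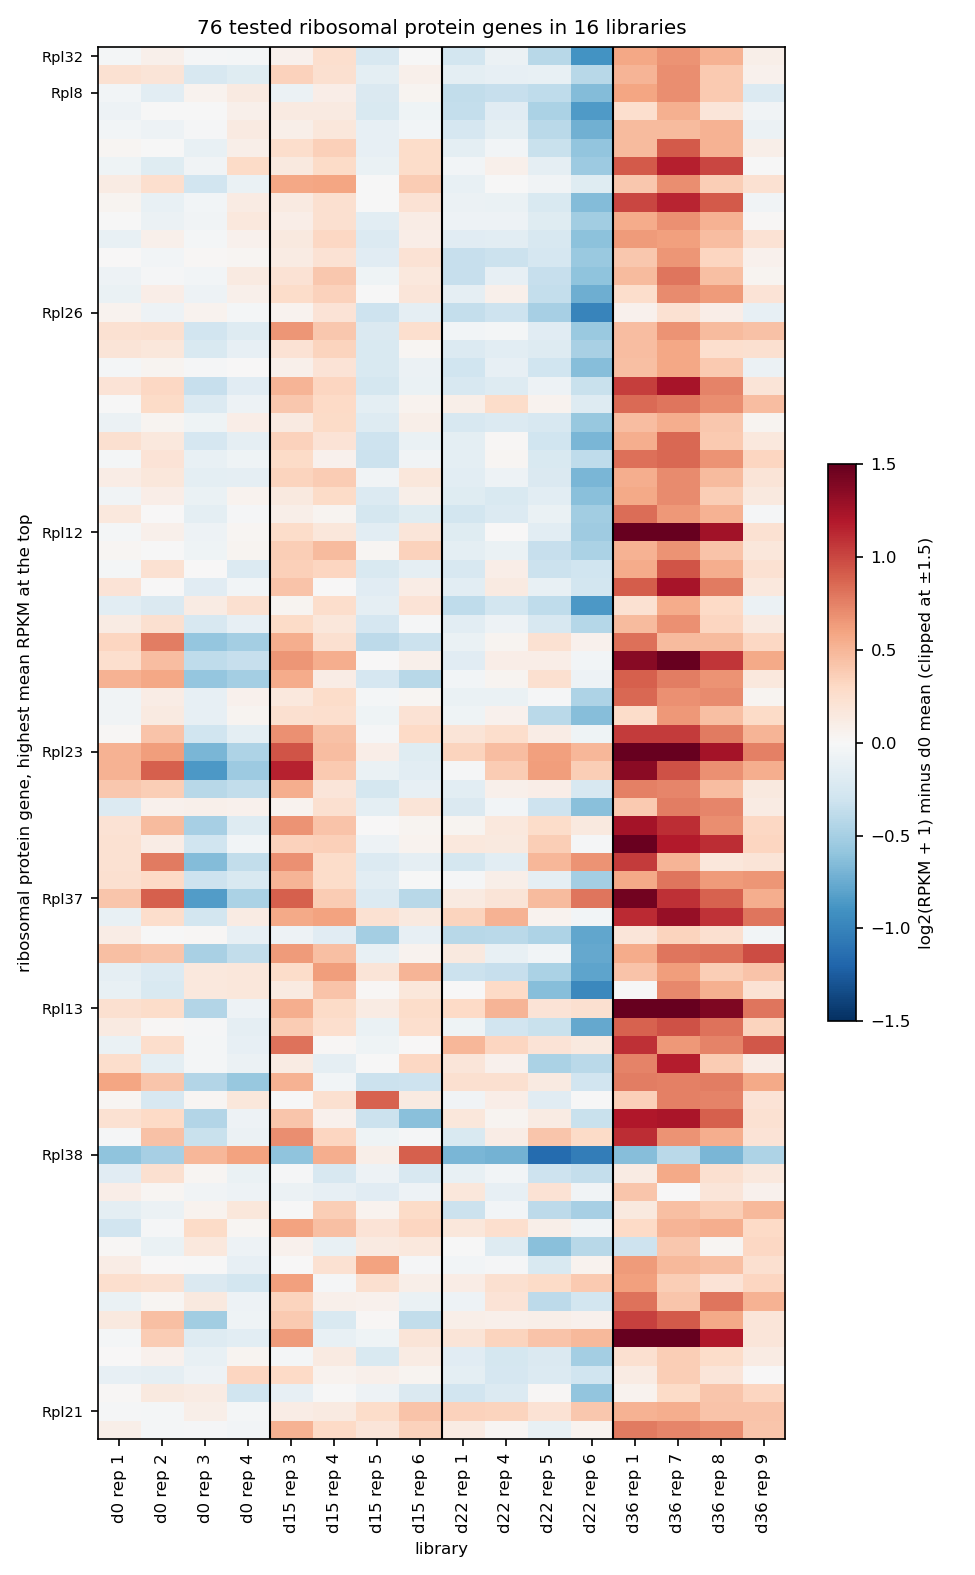
Each row is 1 of the 76 tested genes, ordered by mean RPKM with a few named, each column 1 of the 16 libraries, and the colour is log2(RPKM + 1) minus the d0 mean, from blue (lower) to red (higher), clipped at ±1.5. The first 3 d36 columns are red in nearly all rows, d36 replicate 9 less so, and d22 replicate 6 is the bluest column. In the d36 columns the row of Rpl38 goes against most of the rest.

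The comparison of d15 with d0 bears on the vessels of the lung while a primary tumour grows under the skin. At d15 no ribosomal protein gene passed against d0: 0 of 76 were higher and 0 lower (limma, adjusted p under 0.05), where 0.608% and 0.573% of all tested entries were. The median log2 fold change was 0.12, beside -0.02 over all tested entries, with 61 genes positive and 15 negative. At an unadjusted p under 0.05, 7 genes were higher and 0 lower, beside 7.26% and 9.19% of all tested entries. Against the d0 mean, the median gene stood 0.29 and 0.25 higher on the log2 scale in d15 replicates 3 and 4, 0.06 higher in replicate 6 and 0.11 lower in replicate 5. The d15 libraries thus differed among themselves by more than the group differed from d0, and with the libraries weighted by their spread 2 genes were higher, beside 2.59% of all tested entries. Markers of another cell type differed between the same libraries. The 8 lung epithelium genes (Sftpc, Scgb1a1 and others, 7 of them tested) summed to 3413 and 3288 RPKM in d15 replicates 3 and 4, to 1417 and 1249 in replicates 5 and 6, and to 766 to 1953 at d0. Of the 7 tested, 0 passed at d15 (4 at an unadjusted p under 0.05, each higher). Their part in the ribosomal values was not tested.

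Rps6, the protein that S6 kinase phosphorylates when mTOR is active, gave 2.01, 2.61, 3.47 and 2.73 RPKM at d0 and 4.57, 4.01, 3.23 and 3.59 at d15. The groups overlapped, and its log2 fold change of 0.40 ± 0.13 (SE) did not pass (limma adjusted p = 0.136). Rpl23a, a protein at the exit of the tunnel through which the new chain leaves, gave 11.9, 11.3, 14.8 and 14.9 RPKM at d0 and 16.1, 20.8, 15.1 and 19.1 at d15. All 4 d15 libraries of Rpl23a lay above all 4 of d0, but its change of 0.40 ± 0.13 did not pass either (limma adjusted p = 0.143). Rps12 also separated the groups (0.582 to 0.742 RPKM at d0, 0.851 to 1.34 at d15; limma adjusted p = 0.121). Rpl21, Rpl23a and Rps12 were the 3 genes whose d15 libraries all lay above d0, and for 0 genes all lay below, beside 5.34% and 6.94% of all tested entries. Rpl21 and Rps12 were under 1 RPKM in every d0 library and met the filter of 1 RPKM in 4 libraries only through later groups.

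After resection, at d22, a few ribosomal protein genes were lower than at d0. Of the 76 genes, 6 fell, among them Rpl38, Rpl26, Rpl36al, Rpl23a and Rpl18, and Rpl21 rose. That is 7.9% and 1.3% of the genes, beside 7.10% of all tested entries lower and 8.09% higher, so the share of falls was near the background. The median was -0.20 (all entries, 0.02), and 54 genes were negative. At an unadjusted p under 0.05, 19 were lower and 1 higher, beside 14.0% and 15.8% of all tested entries. In 18 genes all 4 d22 libraries lay below all of d0 and in 1 above, beside 12.3% and 14.2% of all tested entries. Between 1 and 5 genes were lower when single libraries were left out: 1 without d22 replicate 6, 2 without d0 replicate 3 or 4, and 3 without d0 replicate 1, d22 replicate 1 or d22 replicate 5. In these fits 3.12% (without d22 replicate 6) to 5.32% of all tested entries were lower.

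Rpl26, a large-subunit protein that also binds the p53 messenger RNA, gave 153, 139, 152 and 145 RPKM at d0 and 114, 118, 104 and 73.6 at d22. The groups did not overlap, and the log2 fold change was -0.54 ± 0.14 (limma adjusted p = 0.019). Rpl36al, a copy of the X-linked Rpl36a, went from 19.6, 17.9, 18.3 and 16.5 RPKM to 13.2, 13.4, 12.8 and 10.1 (-0.52 ± 0.12, limma adjusted p = 0.00989). It was the one of the 6 that passed in all 8 fits with a library left out. Its parent Rpl36a was 56.1 ± 1.9 at d0 and 46.7 ± 5.7 at d22 and did not pass (-0.27, limma adjusted p = 0.157), and the difference between the copies was not tested.

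Rpl18 went from 55.0 ± 8.4 to 39.4 ± 6.7 RPKM (-0.48 ± 0.16, limma adjusted p = 0.0482). Without d22 replicate 6 its adjusted p rose to 0.167 (limma). Rpl32, Rpl41, Rpl8 and Rpl7, of high level, had values in the same direction that did not pass, such as Rpl32 with 550 ± 21 at d0 and 419 ± 94 at d22 (limma adjusted p = 0.102). Rpl21 went the other way, from 0.664 to 0.812 RPKM at d0 to 0.976 to 1.25 at d22 (0.32 ± 0.09, limma adjusted p = 0.0298). Its level was near the limit of 1 RPKM, which no d0 library reached, and it met the filter only through later groups. The call of Rpl21 held in 2 of 8 fits with a library left out.

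Transcript length and GC content both moved with the d22 values. The ribosomal protein genes are short, with a median transcript of 696.5 bases against 1996.5 over the 10095 tested entries with a known length. Among 2117 other genes under 1000 bases, 382 were lower at d22 than at d0 and 91 higher, and their median was -0.12. Across those 10095 entries, rho with the d22 change was 0.32 for length and -0.34 for GC content, a description over genes. Median GC content was 51.8% in the ribosomal protein genes and 50.9% in those entries. With the trend over length and GC content taken out of each library, 1 ribosomal protein gene was lower and 2 were higher, with a median of -0.08, beside 6.498% and 4.84% of all entries in that fit. That fit removes length and GC content together, and the part of each in the d22 values was not tested further.

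Rpl38 is a surface protein of the large subunit known for its role in translating Hox messenger RNAs in the embryo. It went against the other genes at d36 against d0, and at d22 it was among the 54 genes with a negative change. It gave 3.76, 4.10, 9.16 and 10.0 RPKM at d0 and 3.75, 9.50, 6.64 and 12.4 at d15, then 3.47, 3.42, 2.24 and 2.52 at d22. In the d36 libraries it gave 3.65, 4.46, 3.48 and 4.24. The d0 libraries fall into a pair near 4 and a pair above 9, and all 4 d22 libraries lie below all of d0 and d15. The change was -0.90 ± 0.29 at d22 against d0 (limma adjusted p = 0.0473) and -1.13 ± 0.29 against d15 (limma adjusted p = 0.0465). These calls held in 2 and 1 of 8 fits with a library left out, and no trend-corrected fit passed. At d36 Rpl38 was the only negative gene against d0 (-0.55 ± 0.29, limma adjusted p = 0.187).

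Several large-subunit genes split the d0 libraries the opposite way. Rpl37, a zinc-binding protein of the large subunit, gave 19.6, 27.95, 7.67 and 10.1 RPKM at d0, and Rpl35a, another protein of that subunit, gave 27.3, 35.9, 9.85 and 12.5. In both, replicates 1 and 2 were above replicates 3 and 4, where Rpl38 was below. The same order was seen in Rpl11 (12.6, 11.01, 5.60 and 5.06) and in Rpl35 (53.8, 73.6, 28.2 and 29.9). Within d0, 12 of the 76 genes had a highest library at least 2 times the lowest, with a median ratio of 1.36 over the genes and a maximum of 3.64. The same held for 7 genes at d15, 3 at d22 and 12 at d36. Rpl37, Rpl35a and Rpl11 were chosen for this after their values were seen, Rpl37 and Rpl35a outside the rule for named genes. Rpl37a, Rpl35 and Rps14 had the smallest F statistics of all 76 genes.

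**Figure D4:**
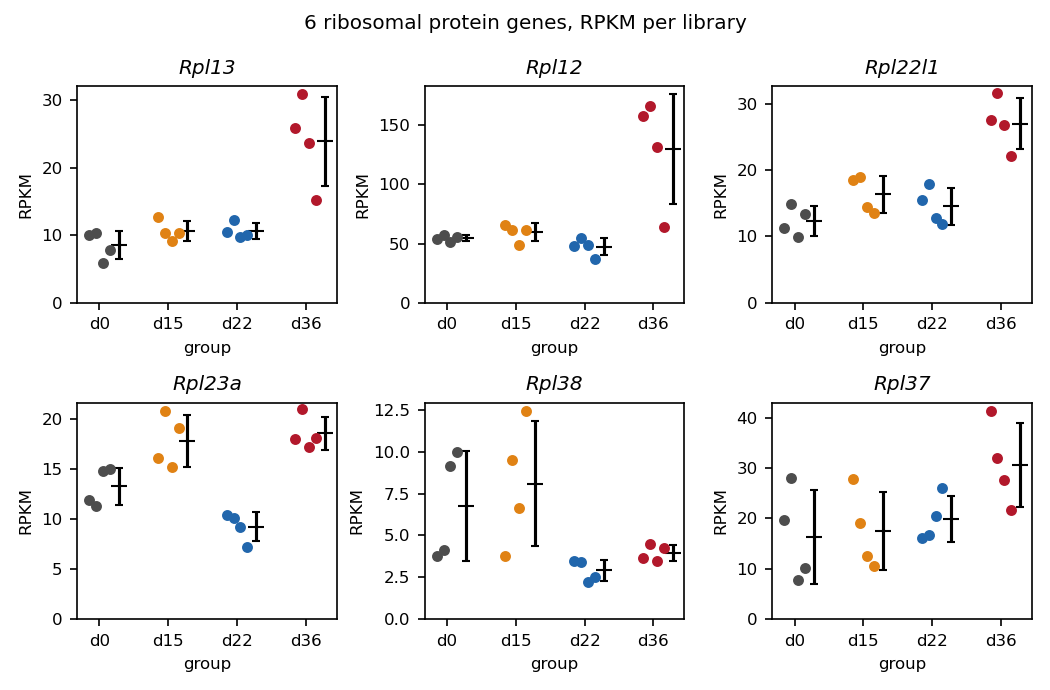
RPKM of Rpl13, Rpl12, Rpl22l1, Rpl23a, Rpl38 and Rpl37 in each library, by group. Points are libraries, and black dashes with bars are mean ± SD of 4 libraries. Rpl13, Rpl12 and Rpl22l1 are highest at d36, Rpl23a is lowest at d22, Rpl38 is low at d22 and d36, and the d0 libraries of Rpl38 and Rpl37 fall into pairs.

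With metastases, at d36, 49 of the 76 genes were higher than at d0 and 0 were lower (limma), beside 16.6% and 7.37% of all tested entries. Of the small subunit 24 of 30 genes rose and of the large subunit 25 of 46, a difference that was not tested. The median was 0.49 (all entries, 0.04), and 75 of 76 genes were positive. At an unadjusted p under 0.05, 64 were higher and 0 lower, beside 23.3% and 13.5% of all tested entries. With libraries weighted by their spread 64 were higher and 1 lower, beside 25.2% and 14.6%. In 33 genes all 4 d36 libraries lay above all 4 of d0, and in 0 below, beside 13.9% and 7.47% of all tested entries. Of the genes with at most 50% shared sequence 18 of 29 rose, with a median of 0.46, and of the others 31 of 47, with a median of 0.51.

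How many genes passed depended on single libraries of d0 and d36. The count was 27 without d36 replicate 7, 29 without d0 replicate 3 and 31 without d0 replicate 4. It was 32 without d36 replicate 8, 33 without replicate 1 (titled day 29) and 60 without d36 replicate 9. In the same order, 14.0%, 12.5%, 12.7%, 12.9%, 12.9% and 21.8% of all tested entries were higher. In a fit of d0 and d36 alone the count was 30, and the share of all tested entries in that fit is not given here. Per library, the median gene stood above the d0 mean by 0.57 (replicate 1), 0.70 (replicate 7), 0.52 (replicate 8) and 0.20 (replicate 9) on the log2 scale.

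Markers of other cells and of growth also differed among the d36 libraries. In d36 replicates 1, 7, 8 and 9, Myc gave 230.3, 136.4, 107.6 and 4.68 RPKM, against 1.02 to 1.51 at d0. Rhox5, a homeobox gene of the germ line and placenta that many mouse tumour lines express, gave 147.6, 97.8, 91.6 and 11.1 RPKM against 0 to 0.196 at d0. The cell-cycle list summed to 176.5, 121.1, 135.0 and 46.8 RPKM (33.0 to 43.6 at d0) and the leukocyte list to 46.0, 85.6, 122.4 and 44.3 (32.2 to 39.3 at d0), while the endothelial list, of which 3 of 10 genes fell, summed to 3913 to 5200 RPKM at d36 and to 5848 to 6966 at d0. The 6 mesenchyme genes (Col1a1, Lum and others) summed to 42.7, 33.4, 41.6 and 2.86 RPKM in the same order, against 3.34 to 3.98 at d0, and of the 3 that were tested Lum passed (2.74 ± 0.53, limma adjusted p = 0.00168). The part of these in the ribosomal values was not tested. Lowest in each of Myc, Rhox5 and the cell-cycle, leukocyte and mesenchyme lists among the d36 libraries was replicate 9, which also had the lowest sum of ribosomal protein transcripts. In the leukocyte list the margin to replicate 1 was small (44.3 against 46.0), and replicate 8 was highest.

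**Figure D5:**
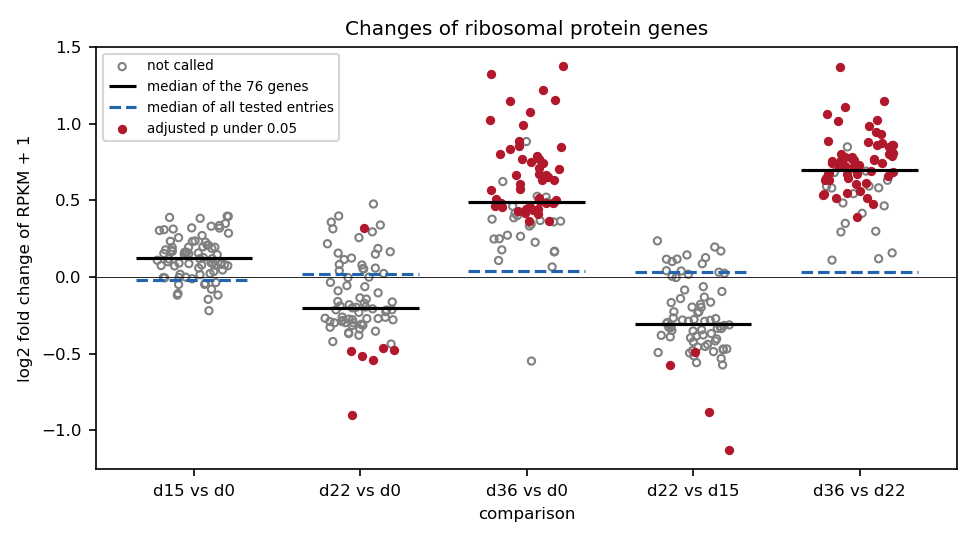
Log2 fold change (limma, on RPKM + 1) of each of the 76 genes in 5 comparisons. Filled red points passed at an adjusted p under 0.05, open points did not, and black and dashed blue lines are the medians of the 76 genes and of all tested entries. The cloud lies near 0 at d15, below it at d22 and above it in both comparisons with d36.

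Among the genes of the P stalk, which recruits the elongation factors, Rplp0 and its neighbour Rpl12 changed most. Rpl12 gave 53.4, 57.3, 51.6 and 55.3 RPKM at d0 and 158, 166, 132 and 64.0 in d36 replicates 1, 7, 8 and 9, a log2 fold change of 1.15 ± 0.22 (limma adjusted p = 0.0016). All d36 libraries were above d0, and replicate 9 was the nearest to it. Rplp0 gave 202, 182, 191 and 214 RPKM at d0 and 393, 437, 374 and 190 at d36, so replicate 9 lay within d0, and the change was 0.75 ± 0.20 (limma adjusted p = 0.0128). Rplp1 went from 238 ± 14 to 345 ± 82 (0.50 ± 0.16, limma adjusted p = 0.0338), a call that held in 1 of 8 fits with a library left out. Rplp2 went from 117 ± 17 to 152 ± 18 (0.39 ± 0.14) and did not pass (limma adjusted p = 0.0516).

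The largest change at d36 on the log2(RPKM + 1) scale was in Rpl13, a large-subunit protein, which gave 9.99, 10.3, 5.87 and 7.82 RPKM at d0 and 25.9, 30.8, 23.6 and 15.2 at d36 (1.38 ± 0.19, limma adjusted p = 0.000135). Its gene lies at chr8:123102350-123105244 on the + strand. The groups did not overlap, and the call held in all 8 fits with a library left out and in all 7 other settings. Rpl23 followed with 26.4, 28.5, 10.8 and 12.8 RPKM at d0 and 60.0, 57.6, 44.3 and 31.1 at d36 (1.33 ± 0.29, limma adjusted p = 0.00386). It binds MDM2, the ubiquitin ligase of p53, and its d0 libraries showed the split described for Rpl37.

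Small-subunit genes at the path of the messenger RNA were also higher. Rps28 rose from 34.5, 40.03, 21.8 and 22.4 RPKM to 75.3, 88.8, 61.4 and 43.2 (1.15 ± 0.22, limma adjusted p = 0.00174) and Rps26 from 88.6 ± 19 to 158 ± 46 (0.80 ± 0.21, limma adjusted p = 0.0121). Rps2 rose from 1.07, 1.74, 0.852 and 0.891 RPKM to 6.19, 6.04, 3.84 and 1.39 (1.22 ± 0.27, limma adjusted p = 0.00422). The low level of Rps2 makes its fold change understated. As a ratio of mean RPKM, d36 to d0, Rps2 had 3.83 and Rpl13 2.81, and in Rps2 replicate 9 lay within the d0 range. Rps7, which binds MDM2, rose from 10.7 ± 0.89 to 18.9 ± 3.6 RPKM (0.75 ± 0.16, limma adjusted p = 0.0032).

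Rpl5 and Rpl11 form with the 5S RNA the particle that inhibits MDM2 when ribosome assembly is disturbed. Rpl5 gave 76.6, 90.3, 72.6 and 74.5 RPKM at d0 and 139, 143, 125 and 98.2 at d36 (0.67 ± 0.14, limma adjusted p = 0.00355), with no overlap. Rpl11 gave 14.3, 14.2, 14.3 and 12.3 RPKM at d36 and rose by 0.71 ± 0.24 (limma adjusted p = 0.0375), with d0 replicate 1 (12.6) inside the d36 range. Its call held in 3 of 8 fits with a library left out, and its F test did not pass (limma adjusted p = 0.0585). Of the 8 tested genes of the MDM2 and p53 list, 2 were higher at d36 than at d0 (16.6% of all tested entries were), Ccng1 (3.63 to 13.3 RPKM, limma adjusted p = 0.00114) and Mdm2 (0.91 ± 0.25, limma adjusted p = 0.0152).

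Among paralogue pairs, both partners rose in one and a single partner in others. Rpl22l1 and Rpl22, proteins with linked levels in other cells, both rose: Rpl22l1 from 11.2, 14.8, 9.86 and 13.4 RPKM to 27.5, 31.6, 26.9 and 22.1 (1.08 ± 0.16, limma adjusted p = 0.000253), and Rpl22 from 86.4 ± 13 to 141 ± 16 (0.70 ± 0.14, limma adjusted p = 0.00255). For Rps27l, a target of p53, the d0 libraries gave 7.78, 10.3, 8.21 and 7.67 RPKM and the d36 libraries 19.2, 13.8, 14.8 and 16.9 (0.86 ± 0.17, limma adjusted p = 0.00215), with no overlap. Here replicate 9 was the second highest of its group. Its partner Rps27 was 3.34 ± 0.35 at d0 and 3.75 ± 0.99 at d36 (0.11 ± 0.16, limma adjusted p = 0.649), with 98.6% of its 50-base stretches shared with other genes. Rpl7l1, a paralogue linked to the assembly of the large subunit, was 4.14 ± 0.30 and 4.80 ± 0.76 (0.16, limma adjusted p = 0.295) and Rpl7 was 305 ± 21 and 392 ± 70 (0.35, limma adjusted p = 0.0969). Rpl36a rose (0.45 ± 0.12, limma adjusted p = 0.015) and Rpl36al did not pass (0.18 ± 0.12, limma adjusted p = 0.301). The differences between partners were not tested.

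Of the remaining genes with a known particular role, Rpl39, at the exit tunnel, rose from 22.8 ± 5.4 to 41.5 ± 7.2 RPKM (0.85 ± 0.17, limma adjusted p = 0.0022) and Rpl3, at the catalytic centre, from 29.3 ± 2.2 to 45.1 ± 10 (0.58 ± 0.15, limma adjusted p = 0.0117). Rps19, a gene often mutated in Diamond-Blackfan anaemia, rose from 18.8 ± 4.3 to 30.0 ± 2.2 (0.67 ± 0.17, limma adjusted p = 0.00967), and Rpsa, known also as a laminin receptor, from 207 ± 31 to 367 ± 110 (0.77 ± 0.21, limma adjusted p = 0.0145), with replicate 9 inside its d0 range. Also higher were Rpl13a (0.48), Rps27a (0.50), which is made as a fusion with ubiquitin, Rps4x (0.45), Rps6 (0.41), Rpl10a (0.60) and Rps12 (0.66). Rps12 was under 1 RPKM in every d0 and d22 library. It met the filter only through d15 and d36, where it was high, so its call carries that limit. Calls of Rpl13a, Rps27a, Rps4x, Rps6 and Rpl10a were lost in 1 to 6 of 8 fits with a library left out. Rpl10 (0.25, limma adjusted p = 0.108), which readies the large subunit for joining, and Rps25 (0.37, limma adjusted p = 0.253), needed by some viral messenger RNAs, did not pass.

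The comparisons of d22 with d15 and of d36 with d22 follow the removal of the tumour and the growth of metastases. Against d15, 4 genes were lower at d22 (Rpl38, Rpl23a, Rpl36a and Rps23) and 0 were higher, beside 1.06% of all tested entries lower and 2.00% higher. The median was -0.31 (all entries, 0.03), and at an unadjusted p under 0.05, 32 were lower and 0 higher, beside 7.75% and 12.6% of all tested entries. In 16 genes all d22 libraries lay below all of d15 and in 0 above, beside 4.80% and 10.2% of all tested entries. Rpl23a gave 10.4, 10.1, 9.19 and 7.18 RPKM at d22, where all 4 d15 libraries had at least 15.1, a fall of -0.88 ± 0.13 (limma adjusted p = 0.00264) that held in all fits with a library left out. It had the largest F statistic of all 76 genes. Rpl36a (-0.57 ± 0.12, limma adjusted p = 0.0216) and Rps23 (-0.49 ± 0.13, limma adjusted p = 0.0478) lost their calls in 4 and 5 of 8 such fits. The count ran to 12 without d15 replicate 5 and was 1 without d15 replicate 4, d15 replicate 6, d22 replicate 5 or d22 replicate 6 and 2 without d22 replicate 1. Of all tested entries, 1.49% were lower without d15 replicate 5 and 0.287% to 0.804% in the other fits with a library left out.

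Between d22 and d36, 58 genes rose and 0 fell, beside 8.73% and 3.07% of all tested entries, and all 76 had a positive value (median 0.70; all entries, 0.03). At an unadjusted p under 0.05, 68 were higher and 0 lower, beside 18.1% and 10.2% of all tested entries. In 63 genes all d36 libraries lay above all of d22 and in 0 below, beside 9.49% and 4.11% of all tested entries. With single libraries left out, the count ran from 45 (without d22 replicate 6) to 65 (without d36 replicate 9). In these fits 4.98% and 16.02% of all tested entries were higher, so the background moved with the count. In a fit of d22 and d36 alone the count was 33, and the share of all tested entries in that fit is not given here. The comparison of d36 with d22 shares the d36 libraries with that against d0, and the low d22 values enter it as well. The largest rises were Rpl12 (1.37 ± 0.22, limma adjusted p = 0.00133), Rps28 (1.15 ± 0.22, limma adjusted p = 0.00404), Rps7 (1.11 ± 0.16, limma adjusted p = 0.000708), Rpl13 (1.06 ± 0.19, limma adjusted p = 0.00221), Rplp0 (1.02 ± 0.20, limma adjusted p = 0.00441) and Rps26 (1.02 ± 0.21, limma adjusted p = 0.00634). With the length and GC trend removed, 46 genes were higher, beside 5.70% of all entries in that fit, and the median was 0.47.

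In the authors' deposited table, which names no comparison group, 47 of 77 ribosomal protein genes with an adjusted p for d36 were higher and 0 lower, where 16.9% and 5.36% of all entries were. For d22 the authors' deposited table had 12 of 75 genes lower and 0 higher (9.18% and 16.5% of all entries). For d15 the authors' deposited table had 2 of 76 genes higher and 0 lower (5.07% and 2.82% of all entries).

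Other genes of the translation machinery, from lists chosen with earlier results of these data known, were counted in the same fit. At d36 against d0 their counts stand beside 16.6% of all tested entries higher and 7.37% lower (23.3% and 13.5% at an unadjusted p under 0.05). Of 20 further genes with TOP messenger RNAs, mostly elongation factors and the like, 15 were higher at d36 than at d0 and 0 lower (median 0.64), with 17 and 0 at an unadjusted p under 0.05. Npm1, a chaperone of ribosome assembly that is also on the biogenesis list, led with 15.8 RPKM at d0 and 70.5 at d36 (1.97 ± 0.24, limma adjusted p = 6.8e-05). At d22 against d0, 2 of the 20 were lower, beside 7.10% of all tested entries, among them Fau (-0.49 ± 0.13, limma adjusted p = 0.0184), a fusion that codes for a ribosomal protein.

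Of 42 ribosome biogenesis genes, 19 were higher at d36 than at d0 and 0 lower (median 0.38), with 25 and 0 at an unadjusted p under 0.05. Npm1, Taf1d, a factor of RNA polymerase I (0.81 ± 0.12, limma adjusted p = 0.000196), and Myc (4.84 ± 0.75, limma adjusted p = 0.000361) had the smallest p. Of 43 translation initiation factors, 16 were higher and 0 lower (median 0.22; 20 and 2 at an unadjusted p under 0.05), among them Eif3h (0.89 ± 0.13, limma adjusted p = 0.000281) and Eif1a (1.20 ± 0.19, limma adjusted p = 0.000385). Eif3h is also counted with the TOP genes. Of 16 mTOR and TOP regulators, 6 were higher and 2 lower (median 0.28), with Larp4, an RNA-binding protein, from 2.25 to 7.25 RPKM (1.30 ± 0.17, limma adjusted p = 0.000126). Larp4 was already higher at d22 (0.93 ± 0.17, limma adjusted p = 0.00293).

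The mitochondrial ribosome is a separate machine with its own protein genes. Its counts stand beside the shares of all tested entries given for each comparison, such as 7.10% lower at d22 and 7.37% lower at d36 against d0. Of 73 tested genes, 35 were lower at d22 than at d0 and 0 higher (median -0.36; 46 and 1 at an unadjusted p under 0.05), among them Mrps16, from 42.2 to 23.8 RPKM (-0.80 ± 0.11, limma adjusted p = 0.000634), and Mrps11 (-0.69 ± 0.10, limma adjusted p = 0.000904). At d36 against d0, 3 were higher and 10 lower with a median of -0.03, where the cytosolic genes had one of 0.49. Against d22, 15 rose at d36 and 0 fell (median 0.28; 39 and 0 at an unadjusted p under 0.05). At d15 against d0, 1 of the 73 was lower, Mrpl53 (-0.52 ± 0.12, limma adjusted p = 0.0457), with a median of -0.23. The difference between the cytosolic and the mitochondrial genes was not tested.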

How the data were processed

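RNA-seq was measured in 16 libraries, 4 per group, made with the SMARTer Ultra Low kit per the labels. The authors deposited RPKM values per gene, per the file headers, and, for each later time, adjusted p-values and log2 fold changes without a named comparison group. STAR, DESeq2 and mm10 stand in the submitters' processing notes. The sources used here do not give the annotation or the treatment of reads with several matches.

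Values were analysed as log2(RPKM + 1), so changes of low genes are understated. Entries that reached 1 RPKM in 4 or more libraries were fitted with limma 3.58.1 (R 4.3.3) in one model of 4 groups with an intensity trend, two-sided, with Benjamini-Hochberg adjustment over all tested entries of a comparison at 0.05. The fit was tested on simulated data. The groups share one estimate of the spread, which differs between them. Genes named are the 6 largest called changes per direction and comparison, the 5 highest and lowest levels, the largest and smallest F statistics, and genes of particular role, and some of them are not reported here. Members and lists were chosen with earlier results of these data known. Shared 50-base stretches were counted in GENCODE M21 transcripts, and starts came from RefSeq. Depth was read from the step of low values (294 of 924 low entries came out whole within 0.1 read), too few to recover reads for a count test. The libraries are biological replicates per the labels.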

Additional observations from a re-analysis of the deposited data

Results flagged for a closer look

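In groups of 4 libraries, 1 library stood far from the other 3 in 8 of 212 groups of a named gene and time point examined, where chance alone gives about 1 in 20. In d36 replicate 9, Rpl11 was 12.3 RPKM (14.2 to 14.3 in the others) and Rpl7 was 287 (422 to 436), both lowest of the group. In d22 replicate 6, Rpl41 was 392 (471 to 483) and Rpl8 was 279 (337 to 345), also lowest. At d0, Rpl21 was high in replicate 3 with 0.812 RPKM (0.664 to 0.679), Rpl32 was high in replicate 2 with 582 (537 to 544), and Rps27a was low in replicate 1 with 19.3 (23.5 to 23.7). At d15, Rps27l was 15.6 RPKM in replicate 3 and 7.99 to 8.56 in the others.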

How the results depend on the processing

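Of the 930 values of named genes that had passed, under other settings, 756 kept their call, 174 lost it and 0 turned in direction. The balance of calls at d22 against d0, 1 higher and 6 lower, did turn under the trend correction and the replicate block. Array weights gave 2 genes higher at d15 and, at d22, 2 higher and 13 lower against d0 and 15 lower against d15, with 1 lower at d36 against d0. Of all tested entries, 2.59% were then higher at d15, and 15.4% higher and 12.2% lower at d22 against d0. Against d15, 3.00% were lower at d22, and 14.6% were lower at d36 against d0. With the length and GC trend removed, d22 had 2 higher and 1 lower against d0 and 2 lower against d15, and the median of d36 against d22 was 0.47. Fitting the 2 groups alone gave 12 lower (d22 against d0), 7 lower (d22 against d15), 30 higher (d36 against d0) and 33 higher (d36 against d22). Shares of all tested entries in these fits are not given here, so these counts have no background beside them and are not read further. Without a filter on low values 3 and 2 genes were lower at d22 against d0 and d15, and with median-of-ratios scaling 10 were lower against d15. The shares of all entries lower were 5.59% and 0.689% without the filter, and 1.52% against d15 with the scaling. Subsets of the genes were added after the data had been seen. In the 29 genes with at most 50% shared stretches, 2 were lower at d22 against d0, 0 against d15, 18 higher at d36 against d0, 23 against d22, and 25 passed the F test. In the 70 genes at 1 RPKM in all libraries, 0 were higher at d22.

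With a library left out, the counts ran from 0 to 1 higher and 1 to 5 lower (d22 against d0), 27 to 60 higher (d36 against d0), 1 to 12 lower (d22 against d15), 45 to 65 higher (d36 against d22) and 49 to 66 for the F test. The medians ran from 0.06 to 0.20 (d15), -0.25 to -0.11 (d22 against d0), 0.44 to 0.59 (d36 against d0), -0.37 to -0.23 (d22 against d15) and 0.61 to 0.81 (d36 against d22). The replicate block (4 residual degrees of freedom) gave 1 higher at d15, 2 higher and 0 lower at d22, 17 and 8 higher at d36 against d0 and d22, and 19 by the F test. Of all tested entries, the block gave 0.552% higher at d15, and 6.87% higher and 2.17% lower at d22 against d0. At d36 it gave 6.75% higher against d0 and 3.39% against d22. Replicate numbers did not pair the libraries: over 9 pairs with the same number the correlation of deviations was -0.11 to 0.22, and 2 were over 0.1. The cause of these differences was not tested.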
